A study of Rattus norvegicus with 46 samples.

Results

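The transcription factor ATF4 and genes of its amino acid response were followed along the villi of the rat duodenum, in animals with normal, reduced or restored iron. The set comprised 10 genes: Atf4, Atf5 and Ddit3, which encode transcription factors, Asns, Psat1, Phgdh and Slc7a11, which encode enzymes of amino acid synthesis and a cystine carrier, and Trib3, Chac1 and Sesn2, which encode effectors of the stress response. Members were selected by gene symbol in the probe annotation, from a list drawn up after log2 levels of these arrays had been seen in all 6 groups and both segments. The levels and tests given here therefore describe the members and are no independent evidence about the list. The 10 symbols matched 13 probe sets of 31042, 3 for Trib3, 2 for Sesn2 and 1 for each other gene, out of 14217 genes with a probe set of their own. All 13 probe sets passed the filter on dim signals, and the brightest one of a gene stands for it unless another is named.

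Wistar rats carrying 2 normal copies of the iron transporter gene Slc11a2 formed 3 groups: 4 controls on a normal diet, aged 1 month, 4 iron-deficient rats, aged 1 month when grouped and given low-iron food with bleeds of 2 to 3 ml every 3 days for 4 weeks, and 3 repleted rats that were treated likewise before 3 days with 50 µM ferric ammonium citrate to drink. Belgrade rats, which carry a Slc11a2 mutation on both copies (bb) on a Wistar background, also formed 3 groups: 4 rats on a normal diet, 4 that received iron in the drinking water for 3 days and 3 that received it for 6 days. The age of the Belgrade rats is not stated, and the labels state only that their handling matched that of the Wistar rats, so whether they were bled, and the iron concentration they drank, are not spelled out. All rats were fasted overnight, and each of the 22 gave 1 array of cryostat sections from the villus top and 1 from the villus bottom, 44 in all. A lower and an upper crypt array came from 1 further Wistar rat. Belgrade rats and Wistar rats differ in the mutation in every cell of the body and not in the duodenum alone.

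Cells read a shortage of amino acids or of heme, or stress in the endoplasmic reticulum, through kinases that phosphorylate the translation factor eIF2. Most protein synthesis then slows while ATF4 is translated more, and ATF4 raises genes for amino acid synthesis, uptake and tRNA charging. CHOP, the product of Ddit3, and TRIB3 act later in the same response, and TRIB3 restrains ATF4. In the villus, enterocytes leave the crypt, mature on the way up and are shed at the tip, so the segments compared here hold cells of different age.

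ATF4 binds composite DNA sites together with C/EBP factors, and the core of these sites, the letters TGATGNAA, was looked for on both strands in the 250 bases before the annotated start of each gene (RefSeq, build GRCr8). All 10 members had an entry, and 2 of them, Chac1 and Trib3, held the letters, as did 3.4% of 33469 promoters of the same length. These 2 promoters are shown because they hold the letters, while Atf5, which was called in Belgrade tops as Chac1 was, has no match in this window. Capitals mark the match, which in both genes is on the strand opposite to the gene. A match of letters is a description and not a binding site. The Chac1 window lies at chr3:126795881-126796130 on the plus strand, with the match beginning at position -167 relative to the start. The Trib3 window lies at chr3:161275534-161275783 on the minus strand, with the match beginning at position -21 relative to the start.
Chac1: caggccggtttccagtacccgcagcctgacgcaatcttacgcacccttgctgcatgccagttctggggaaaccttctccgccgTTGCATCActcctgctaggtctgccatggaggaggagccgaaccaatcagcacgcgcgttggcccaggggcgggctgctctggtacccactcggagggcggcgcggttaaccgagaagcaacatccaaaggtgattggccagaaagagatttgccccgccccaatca
Trib3: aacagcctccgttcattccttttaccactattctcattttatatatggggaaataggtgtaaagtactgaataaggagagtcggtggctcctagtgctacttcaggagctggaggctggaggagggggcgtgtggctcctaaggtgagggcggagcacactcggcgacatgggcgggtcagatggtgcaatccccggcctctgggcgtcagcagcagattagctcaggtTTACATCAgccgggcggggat

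Levels are log2 intensities after normalization across the villus arrays, so a difference of 1 is a doubling, and levels are compared within a probe set and never between genes. For orientation, the 40th percentile of an array lay at 8.99. Control rats 1 and 2 were near-identical on both arrays, as were Belgrade rats 1 and 2 on the normal diet, and each pair was averaged and counted as 1 sample (written 1-2), which left 20 counted samples. The deposited sample labels do not say that other rats of a group were raised or handled apart, so p-values measure the spread between these samples. Signals in bulk tissue cannot tell fewer cells of a type from less RNA per cell. Marker lists were limited to the listed genes with a probe set of their own. Enterocyte markers (6 such genes, without Lct and Sis) averaged 16.36 to 17.27 in the top arrays and 12.58 to 15.84 in the bottom arrays. The bottoms of control sample 3 and repleted sample 3 had the lowest enterocyte levels (13.38 and 12.58) and the highest smooth muscle and stroma levels (15.77 and 15.63, over 11 genes). The top of repleted sample 3 had the highest median intensity of all villus arrays as deposited, 1179 against at most 757 in the other tops. Its spread against the other 2 repleted tops (robust SD of the log2 differences, 0.71 and 0.73) was above that of every other pair of tops within a group. Pancreas markers (11 genes) were high in single bottoms of several groups, up to 15.90 in deficient sample 1. Xist exceeded a log2 level of 12 in 1 of 3 control, 0 of 4 deficient, 1 of 3 repleted, 1 of 3 Belgrade, 1 of 4 3-day and 3 of 3 6-day samples. The array labelled upper crypt had enterocyte markers at 16.88 and dividing-cell markers at 10.88, like the villus tops, and the array labelled lower crypt had 15.34 and 12.74, like the villus bottoms.

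The members divided along the villus. Trib3, Ddit3, Chac1, Sesn2 and Atf4 were higher in the top than in the bottom of the same rat, while Psat1, Phgdh and Asns were lower there. Asns differed by -0.53 ± 0.16 (SE, adjusted p = 0.011), and without control sample 3 and repleted sample 3 by -0.43 (adjusted p = 0.051), which is no longer a call. Of the 13 probe sets, 7 were called higher and 3 lower in the top over the 6 groups (limma, adjusted p under 0.05). Such calls were common on these arrays, at 25.5% of all probe sets higher and 28.8% lower, and the members' median difference was 0.40 against 0.02 for all probe sets.

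Trib3 encodes a pseudokinase that is induced by ATF4 and CHOP and feeds back on them. Its 3 probe sets were higher in the top in 20 of 20 counted samples, by 3.55 ± 0.12, 3.52 ± 0.15 and 3.71 ± 0.13 (SE), with adjusted p of 2.2e-12, 1.2e-11 and 2.8e-12. A rise in every counted sample was seen in 8.59% of all probe sets. Ddit3 was 1.46 ± 0.13 (SE) higher in the top, in 19 of 20 samples, with repleted sample 3 the exception (10.64 in the top and 10.96 in the bottom). Sesn2, whose product restrains mTORC1 and senses leucine, was higher in the top in 20 of 20 samples, by 0.89 ± 0.10 (SE). The dimmer Sesn2 probe set gave 0.16 ± 0.23 (SE, adjusted p = 0.58) and was not called. Its mean slope was -0.94 in repleted and -0.54 in 3-day Belgrade rats, and 0.23 to 1.31 in the other groups. The 2 Sesn2 probe sets thus disagree in size and, in those groups, in direction.

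Psat1 and Phgdh encode enzymes of serine synthesis from a glycolytic intermediate. Psat1 was lower in the top in all 20 samples, by -2.75 ± 0.18 (SE, adjusted p = 1.2e-09). Phgdh was lower in the top in all 20 samples, by -1.82 ± 0.24 (SE, adjusted p = 5.0e-06), and 11.3% of all probe sets were lower in every sample. Slc7a11, the cystine and glutamate exchanger, showed a difference of 0.37 ± 0.17 (SE, adjusted p = 0.074) and was not called. The dividing-cell markers of the crypt (6 genes) ran the same way as Psat1 and Phgdh, at 9.77 to 11.47 in the tops and 12.19 to 13.40 in the bottoms, and their part in these differences was not tested.

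**Figure D1:**
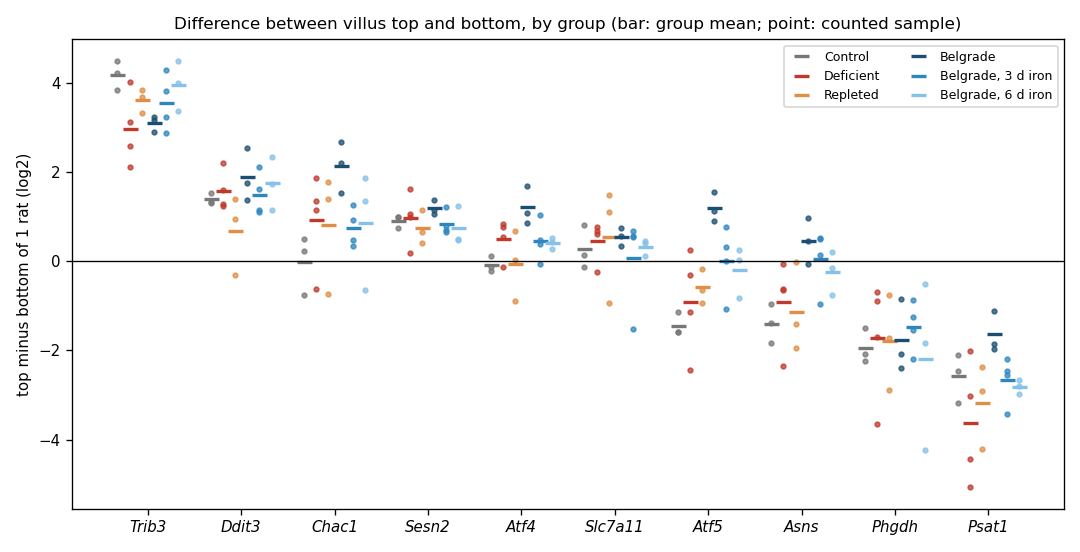
Top minus bottom log2 level within a rat (vertical axis) for the brightest probe set of each of the 10 genes (horizontal axis), with points for the 20 counted samples and bars for the group means, coloured by group. Trib3 lies between 2.11 and 4.49 in every sample, Psat1 and Phgdh lie below 0 in every sample, and Asns and Atf5 lie below 0 in all control samples and spread around or above 0 in the Belgrade groups.

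The slopes of Asns, Atf5, Atf4 and Chac1 are given by group, since their signs or calls were not the same in all of them. Calls also varied between groups among the members whose slopes are not listed by group. Asns was lower in the top by -1.40 ± 0.42 (SE) in controls, -0.92 ± 0.36 in deficient and -1.13 ± 0.42 in repleted rats, but the difference was 0.45 ± 0.42 in Belgrade rats, 0.05 ± 0.36 after 3 days and -0.24 ± 0.42 after 6 days of iron. Only the control and repleted slopes of Asns were called (adjusted p = 0.021 and 0.048). Atf5 ran from -1.44 ± 0.40 (SE, adjusted p = 0.015) in controls to 1.19 ± 0.40 (SE, adjusted p = 0.055) in Belgrade rats on the normal diet. Its slope was -0.91 in deficient, -0.59 in repleted, 0.01 in 3-day and -0.19 in 6-day rats, none of them called. Atf4 stood at -0.08 ± 0.28 (SE, adjusted p = 0.89) in control samples and was higher in the top by 1.20 ± 0.28 (SE, adjusted p = 0.0064) in Belgrade rats. The slope of Atf4 was 0.50 in deficient, -0.06 in repleted, 0.45 in 3-day and 0.41 in 6-day rats, without a call. Chac1 stood at -0.02 ± 0.53 (SE) in controls and at 2.13 ± 0.53 (SE, adjusted p = 0.010) in Belgrade rats. In the remaining groups its slope was 0.93 in deficient, 0.81 in repleted, 0.75 in 3-day and 0.85 in 6-day rats, again without a call.

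The difference of slopes between Belgrade and control rats was tested directly. It was 2.63 ± 0.57 (SE) for Atf5, with an unadjusted p of 0.00028 and an adjusted p of 0.50. For Chac1 it was 2.15 ± 0.75 (SE, adjusted p = 0.71), for Asns 1.85 ± 0.59 (SE, adjusted p = 0.70) and for Atf4 1.28 ± 0.39 (SE, adjusted p = 0.70). None of the 13 probe sets was called in this test, in which 0 of 26517 passed and 1711 had an unadjusted p under 0.05, so the slopes of these 4 genes are not shown to differ between the genotypes.

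Atf4 encodes the factor itself, and its amount is set largely by translation, which arrays do not measure. Its top levels were 14.02, 14.47 and 14.33 in control samples and 15.32, 15.52 and 15.54 in Belgrade samples on the normal diet. Deficient tops held 14.91, 14.78, 14.64 and 14.30, repleted tops 14.50, 14.79 and 13.59. Belgrade tops were above every top of the other 5 groups. The difference from controls in the top was 1.19 ± 0.24 (SE, adjusted p = 0.051), just short of the threshold. In the bottom, all 20 samples lay between 13.84 and 14.68, and Belgrade samples (14.47, 14.45 and 13.84) overlapped controls (14.15, 14.68 and 14.22), with a difference of -0.10.

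Atf5, which encodes a related factor that is translated under the same eIF2 control, was also lowest by mean in control tops and highest in Belgrade tops. Control tops held 9.18, 9.91 and 9.48, and Belgrade tops 11.67, 11.69 and 12.09. No control and Belgrade top overlapped, and the difference was 2.30 ± 0.45 (SE, adjusted p = 0.045). Deficient tops held 10.81, 9.93, 9.87 and 8.87, with a mean of 9.87 against 9.52 in controls, and repleted tops held 10.45, 11.45 and 10.53. Over both segments repleted rats were above deficient rats by 0.78 ± 0.26 (SE, adjusted p = 0.23) and above controls by 0.86 ± 0.28 (SE, adjusted p = 0.14), without overlap in either comparison and without a call. In the bottom Belgrade samples were the lowest group (10.55, 10.79 and 10.55, against 10.32, 11.50 and 11.07 in controls), with a difference of -0.33 ± 0.30 (SE, adjusted p = 0.84), so the higher level in Belgrade rats was measured in the top segment.

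Ddit3 encodes CHOP. Its tops held 11.76, 11.52 and 11.73 in controls, 12.57, 12.42, 11.80 and 11.73 in deficient rats and 12.51, 11.91 and 13.22 in Belgrade rats. Belgrade tops did not overlap control tops, but the difference of 0.88 ± 0.36 (SE, adjusted p = 0.63) was not called. In the bottom 1 group spanned more than the rest, the 6-day Belgrade rats at 10.94, 9.33 and 10.08.

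**Figure D2:**
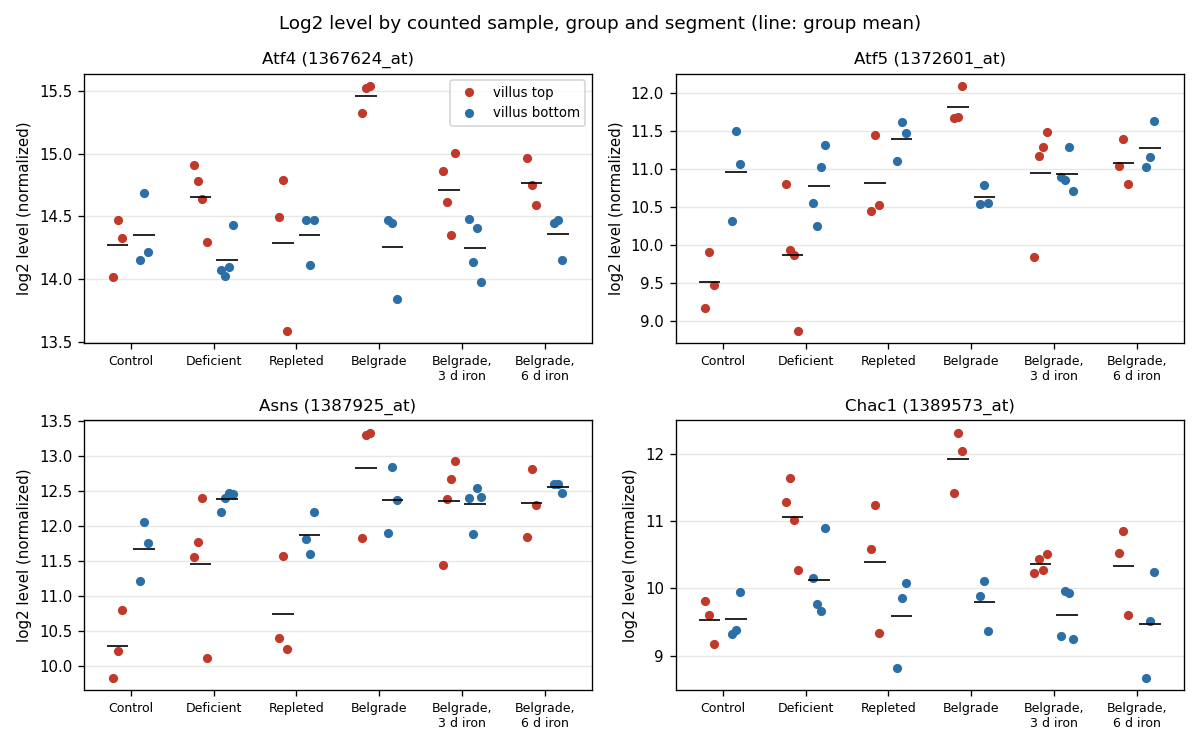
Normalized log2 level (vertical axis) of Atf4, Atf5, Asns and Chac1 in each counted sample, by group (horizontal axis) and segment (red, villus top; blue, villus bottom), with lines for group means. The tops of Belgrade rats on the normal diet are the highest tops of each gene by mean, 15.46 for Atf4, 11.82 for Atf5, 12.82 for Asns and 11.93 for Chac1, while the bottoms of the groups overlap more.

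Asns encodes asparagine synthetase, the classic target of ATF4 under amino acid shortage. Its tops held 9.82, 10.22 and 10.79 in controls and 11.83, 13.29 and 13.33 in Belgrade rats. All Belgrade tops were above all control tops, by 2.54 ± 0.51 (SE) on average, and the adjusted p of 0.0504 fell just short of the threshold. Deficient tops held 11.55, 11.76, 12.40 and 10.11, 1 of the 4 within the control range, for a difference of 1.18 ± 0.48 (SE, adjusted p = 0.28). By mean the tops ran from controls (10.28) over repleted (10.74), deficient (11.45), 6-day Belgrade (12.32) and 3-day Belgrade (12.35) to Belgrade rats on the normal diet (12.82). Each neighbour in that order overlapped the next.

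The bottoms of Asns differed less. Control bottoms held 11.21, 12.06 and 11.75 and deficient bottoms 12.19, 12.40, 12.46 and 12.46, without overlap, for a difference of 0.71 ± 0.23 (SE, adjusted p = 0.22). Over both segments Asns was 0.94 ± 0.29 (SE, adjusted p = 0.12) higher in deficient rats and 1.62 ± 0.31 (SE, adjusted p = 0.099) higher in Belgrade rats than in controls. These 2 comparisons share the control samples. Repleted rats lay -0.62 ± 0.29 (SE, adjusted p = 0.37) from deficient rats.

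Psat1 tops held 9.10, 9.27 and 9.80 in controls and 9.58, 11.01 and 10.47 in Belgrade rats, which overlapped (0.96 ± 0.62, SE, adjusted p = 0.88). Deficient tops of Psat1 spread from 6.99 to 10.11, wider than any other group of tops, whereas its bottoms lay between 11.44 and 13.30 in all 20 samples. Phgdh tops lay between 7.33 and 10.44, near or below the 40th percentile in many rats, and the Belgrade difference in the top was -0.47 ± 0.67 (SE, adjusted p = 0.999). Slc7a11 was dim throughout, at 8.07 to 10.78 in the tops and 8.47 to 9.90 in the bottoms, with a Belgrade difference in the top of 0.38 ± 0.61 (SE, adjusted p = 0.999). No group of Phgdh or Slc7a11 tops stood clear of the controls.

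Chac1 encodes an enzyme that breaks down glutathione, and its transcript is induced through ATF4. Its tops held 9.82, 9.61 and 9.17 in controls, 11.29, 11.64, 11.01 and 10.27 in deficient rats and 11.41, 12.31 and 12.05 in Belgrade rats. Both groups lay wholly above the controls. The Belgrade difference of 2.39 ± 0.44 (SE) was called (adjusted p = 0.034), and the deficient difference of 1.52 ± 0.41 (SE) was not (adjusted p = 0.080). Repleted tops held 10.59, 11.25 and 9.34 and spanned the control and the deficient range. In the bottom all samples of Chac1 lay between 8.67 and 10.90 and no group lay clear of the controls, with differences of 0.57 in deficient and 0.24 in Belgrade rats. Over both segments the differences were 1.05 ± 0.25 (SE, adjusted p = 0.062) in deficient and 1.32 ± 0.27 (SE, adjusted p = 0.14) in Belgrade rats.

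Trib3 was the member called in iron deficiency. Over both segments its brightest probe set was higher in deficient than in control rats by 1.74 ± 0.34 (SE, adjusted p = 0.035). Its bottoms held 9.31, 8.79 and 9.23 in controls and 12.56, 11.75, 11.51 and 10.02 in deficient rats, without overlap, and the difference there was 2.35 ± 0.48 (SE, adjusted p = 0.11). Its tops held 13.14, 13.01 and 13.72 in controls and 14.67, 14.87, 14.09 and 14.03 in deficient rats, also without overlap, for 1.13 ± 0.30 (SE, adjusted p = 0.068). The other 2 Trib3 probe sets were higher in deficient rats by 0.88 ± 0.34 (SE, adjusted p = 0.23) and 1.51 ± 0.52 (SE, adjusted p = 0.17), in the same direction and not called.

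In Belgrade rats on the normal diet Trib3 bottoms held 10.54, 11.56 and 11.34, all above the control bottoms, for 2.03 ± 0.52 (SE, adjusted p = 0.75). Their tops held 13.76, 14.45 and 14.49, for 0.95 ± 0.32 (SE, adjusted p = 0.41). Over both segments the difference was 1.49 ± 0.37 (SE, adjusted p = 0.28). Without repleted sample 3, which enters only the shared spread, its adjusted p was 0.040. Repleted rats stood 1.01 ± 0.37 (SE, adjusted p = 0.20) from controls and -0.73 ± 0.34 (SE, adjusted p = 0.38) from deficient rats. These values rested on repleted sample 3, without which they were 1.49 (adjusted p = 0.042, called) and -0.25 (adjusted p = 0.87). The enterocyte markers of the bottoms overlapped between these groups, at 13.38 to 15.37 in controls, 14.68 to 15.37 in deficient and 14.99 to 15.71 in Belgrade samples. In the tops, deficient rats differed from controls without overlap in enterocyte markers (16.44 to 16.91 against 17.03 to 17.27), in lymphocyte and antigen-presenting cell markers (8 genes, 9.77 to 9.98 against 10.65 to 11.30) and in red blood cell markers (3 genes, 11.45 to 13.33 against 10.78 to 11.02). In the bottoms the red blood cell markers stood at 10.91 to 11.87 against 10.55 to 10.66. Dividing-cell markers (6 genes) of the bottoms did not overlap either, at 12.37 to 12.93 in deficient rats against 12.94 to 13.21 in controls. Belgrade bottoms also lay apart from control bottoms, at 12.19 to 12.59 for dividing-cell and 11.30 to 12.73 for red blood cell markers. Deficient sample 1, whose bottom held the highest Trib3 of the deficient bottoms (12.56), had the high pancreas markers there, 15.90 against 8.19 to 8.52 in the other 3. The part of these markers in the Trib3 difference was not tested.

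The call of Trib3 in deficient rats rested on few samples. Its adjusted p was 0.12, 0.15 and 0.056 without control samples 1-2, 3 and 4, and 0.099, 0.12 and 0.066 without deficient samples 1, 2 and 3, while the difference stayed between 1.51 and 2.04. It was 0.0152 without deficient sample 4 and 0.0032 without repleted sample 3, which enters only the shared spread. Without control sample 3 and repleted sample 3 (both segments), whose bottoms had the highest stroma markers, the difference was 1.59 (adjusted p = 0.033).

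Sesn2 was not called in any comparison between groups. Its tops held 12.88, 12.85 and 12.11 in controls, 12.67, 12.18, 11.85 and 12.42 in deficient rats and 12.98, 12.74 and 12.53 in Belgrade rats. These groups overlapped, and the Belgrade difference in the top was 0.14 ± 0.35 (SE, adjusted p = 0.999). Over both segments the dimmer Sesn2 probe set lay at 7.13 to 8.43 in repleted rats and 8.95 to 9.65 in controls. This difference of -1.41 was without overlap and was not called.

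**Figure D3:**
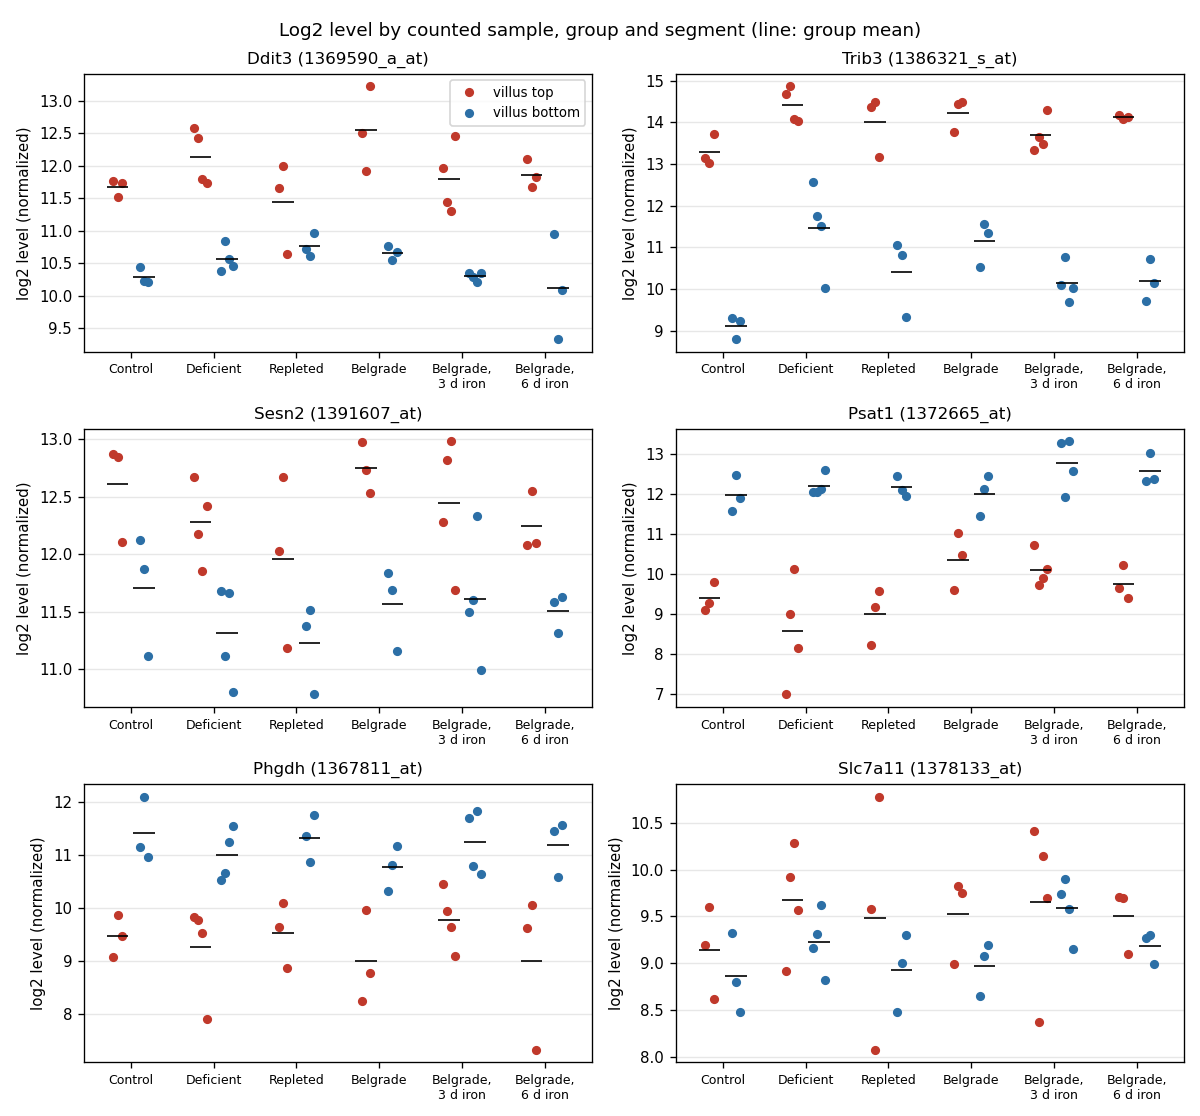
Normalized log2 level (vertical axis) of Ddit3, Trib3, Sesn2, Psat1, Phgdh and Slc7a11 in each counted sample, by group (horizontal axis) and segment (red, villus top; blue, villus bottom), with lines for group means. Trib3 bottoms of controls (8.79 to 9.31) lie below the bottoms of every other group, and Psat1 tops and bottoms do not meet in any group.

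Deficient and Belgrade rats were each compared with the same control samples. In deficient against control rats, over both segments, 1 of 13 member probe sets was called higher and none lower, where 0.272% of all probe sets were called higher and 0.132% lower. The groups did not overlap for 4 of the 13, all higher, against 7.84% of all probe sets. The median member difference was 0.37, against -0.02 over all probe sets, and 0.23 with 1 probe set per gene. In the tops alone none of 13 was called (0.460% of all were called higher and 0.517% lower), 4 had an unadjusted p under 0.05 (3308 of 26517 over all) and 3 were higher without overlap, against 7.46% of all probe sets.

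In Belgrade against control rats, over both segments, none of 13 was called and 8 had an unadjusted p under 0.05, as had 1592 of 26517 probe sets over all. Over all probe sets 3 of 26517 were called, which is 0.0113%, all of them higher. The same 8 probe sets, of Asns, Atf4, Atf5, Ddit3, Trib3 (3 probe sets) and Chac1, were higher without overlap, against 7.13% of all probe sets, and the median member difference was 0.63 against -0.01. In the tops 2 of 13 were called higher, Chac1 and Atf5, where 0.0415% of all probe sets were called higher and 0.0490% lower, and 8 were higher without overlap, against 7.39%. The median member difference in the tops was 0.92, against -0.0049 over all probe sets. With 1 probe set per gene the medians were 0.59 over both segments and 0.95 in the tops. In the bottoms none was called (0.00377% of all were called higher), and 4 were higher without overlap, against 7.18% (Ddit3 and 3 Trib3 probe sets). The median of the 13 probe sets there was 0.24, against -0.02 over all probe sets. With 1 probe set for each of the 10 genes the median in the bottoms was 0.07, with 6 genes higher and 4 lower.

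The 2 calls in the Belgrade tops also rested on few samples. For Chac1 the adjusted p was 0.16, 0.086 and 0.17 without control samples 1-2, 3 and 4, and 0.23 and 0.18 without Belgrade samples 3 and 4, with differences from 2.20 to 2.65. For Atf5 it was 0.27, 0.086 and 0.17 without control samples 1-2, 3 and 4, and 0.070, 0.21 and 0.28 without Belgrade samples 1-2, 3 and 4, with differences from 2.13 to 2.49. Repleted sample 3 enters these comparisons only through the shared spread, and without it Asns and Atf4 were also called in the Belgrade tops (adjusted p = 0.022 and 0.0049). Belgrade tops differed from control tops without overlap in goblet cell markers (6 genes, 15.59 to 15.82 against 14.74 to 15.24) and in red blood cell markers (3 genes, 11.07 to 12.55 against 10.78 to 11.02). Their lymphocyte and antigen-presenting cell markers, at 9.82 to 10.68 against 10.65 to 11.30, overlapped. The part of these markers in the member differences was not tested. Genotype and any difference in age between the Belgrade and Wistar rats cannot be told apart.

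**Figure D4:**
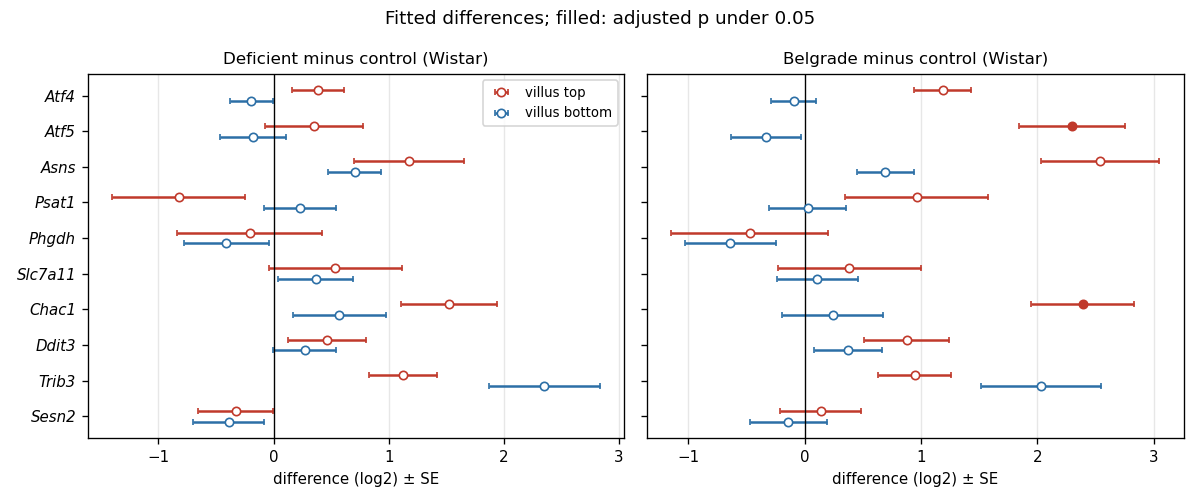
Fitted log2 difference from control with its SE (horizontal axis) for the brightest probe set of each gene (vertical axis), in deficient rats (left) and Belgrade rats on the normal diet (right), with red for villus tops, blue for villus bottoms and filled symbols for adjusted p under 0.05. The filled symbols are Atf5 and Chac1 in Belgrade tops, at 2.30 and 2.39, and Trib3 is the member whose bottom difference exceeds 2 in both panels (2.35 and 2.03).

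Iron in the drinking water was followed in repleted Wistar and in Belgrade rats. After 3 days none of the 13 probe sets was called between repleted and deficient rats, as 0 of 26517 passed (limma) while 3385 had an unadjusted p under 0.05. The member differences ran from -1.02 to 0.78, with 3 probe sets higher and 10 lower. Chac1 lay -0.60 ± 0.25 (SE, adjusted p = 0.32) from deficient rats. Against controls, repleted rats had none of 13 called, where 0.0339% of all probe sets were called higher and as many lower. The tops of repleted sample 3 held the lowest Atf4 (13.59) and the lowest Ddit3 (10.64) of all 20 samples, on the array of highest median intensity.

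In Belgrade rats given iron the tops of Chac1 lay below the range of the unfed group. They held 10.22, 10.44, 10.28 and 10.51 after 3 days and 10.52, 10.85 and 9.61 after 6 days, against 11.41, 12.31 and 12.05 without iron. The differences in the top were -1.56 ± 0.41 (SE) and -1.60 ± 0.44 (SE), with unadjusted p of 0.0010 and 0.0015. Neither was called, since the adjusted p was 1.00 in both cases, and 0 of 26517 probe sets were called in either comparison of tops (548 and 1016 with an unadjusted p under 0.05).

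Atf4 tops after iron held 14.86, 14.62 and 14.35 in samples 1 to 3 at 3 days, with sample 4 slightly higher, and 14.97, 14.75 and 14.59 at 6 days, and all 7 lay below the unfed range that began at 15.32. The differences were -0.75 ± 0.23 (SE) and -0.69 ± 0.24 (SE), also not called. Atf5 tops held 9.84, 11.17, 11.29 and 11.49 at 3 days and 11.04, 11.40 and 10.81 at 6 days, below the unfed minimum of 11.67. Asns behaved otherwise, with tops of 11.44, 12.38, 12.67 and 12.93 at 3 days and 11.84, 12.81 and 12.30 at 6 days that stayed within the unfed range of 11.83 to 13.33 in 6 of 7 samples.

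Counted over the members, 5 of 13 top probe sets were lower without overlap after 3 days, against 1.89% of all probe sets, and 5 of 13 after 6 days, against 5.54%. None was higher without overlap. These were the single probe sets of Atf4, Atf5 and Chac1 and 2 of Trib3 in both comparisons, which share the unfed Belgrade samples. All 3 of the 6-day samples had high Xist, against 1 of 3 unfed samples, and the part of this difference in the 6-day top values was not tested.

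The brightest probe set of each of the 10 genes in the array labelled upper crypt lay within the range of the villus tops, and in the array labelled lower crypt within the range of the villus bottoms. Trib3 read 13.26 in the upper and 11.53 in the lower crypt array, and Psat1 10.34 and 12.26. For Asns, Atf4, Chac1 and Slc7a11 both crypt arrays lay in the range of both segments, so these genes do not place the crypt arrays with either segment. The lower crypt value of Trib3 was above every control bottom (8.79 to 9.31). The other 2 Trib3 probe sets left the range of the matching segment on 1 array each. The middle one read 11.58 in the upper crypt array, below every top (12.06 to 13.63), and the dimmest 9.95 in the lower crypt array, above every bottom (5.74 to 9.71). With 1 rat there is no replicate for these values.

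Other genes of the pathway were taken from lists of the kinases, targets, enzymes and chaperones around ATF4. The eIF2 kinases, phosphatase regulators and eIF2B subunits (12 genes, all tested) had no call in either comparison with controls. Over all probe sets such calls were rare, at 0.460% higher and 0.517% lower in deficient tops and 0.0415% and 0.0490% in Belgrade tops. Along the villus 5 were higher in the top and 7 lower, all called, where 25.5% of all probe sets were called higher and 28.8% lower. Eif2ak1, the heme-regulated kinase HRI, was 0.54 ± 0.08 (SE) higher in the top, and Eif2ak4, the amino acid sensor GCN2, -0.80 ± 0.12 (SE) lower there. In Belgrade tops Eif2ak4 (0.67 ± 0.39, SE, adjusted p = 0.86) and Ppp1r15a (0.65 ± 0.38, SE, adjusted p = 0.86) had the largest differences of that list.

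Other ATF4 targets and partners (13 of 14 genes tested) had 6 genes called higher in the top and none lower, against 25.5% of all probe sets higher and 28.8% lower. Atf3 (3.66 ± 0.24, SE) was among the 6. In deficient tops Ddit4, an inhibitor of mTORC1, was called higher by 1.41 ± 0.27 (SE, adjusted p = 0.014), as were 0.460% of all probe sets. In Belgrade tops it stood 1.42 ± 0.28 (SE, adjusted p = 0.050, short of the threshold) above controls, and Atf3 (1.80 ± 0.60, SE, adjusted p = 0.41) and Nupr1 (1.54 ± 0.37, SE, adjusted p = 0.12) were not called. The list median in Belgrade rats was 0.25 over both segments and 0.33 in the tops.

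The aminoacyl-tRNA synthetases and the tRNA exporter Xpot (13 genes, all tested) load amino acids onto tRNA or carry it, and 11 of the 13 were called lower in the top over the 6 groups, as were 28.8% of all probe sets (25.5% were called higher). In Belgrade tops all 13 were above controls, with a median of 0.73 against -0.0049 over all probe sets. None was called, where 0.0415% of all probe sets were called higher. The largest of these were Cars1 (1.56 ± 0.33, SE, adjusted p = 0.062) and Aars1 (1.32 ± 0.34, SE, adjusted p = 0.16). In deficient tops 7 were higher and 6 lower. In Belgrade bottoms 4 were higher and 9 lower.

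Genes of amino acid uptake and synthesis (18 of 19 tested) had 3 called higher and 8 lower in the villus top, beside 25.5% and 28.8% of all probe sets. Against controls, 0.460% of all probe sets were called higher and 0.517% lower in deficient tops, and 0.0415% and 0.0490% in Belgrade tops. In deficient tops Slc38a2, the amino acid carrier SNAT2, was called higher by 0.98 ± 0.23 (SE, adjusted p = 0.037), while Aldh18a1, of proline synthesis, was called lower by -1.44 ± 0.33 (SE, adjusted p = 0.034) and Got1, the cytosolic aspartate aminotransferase, by -0.93 ± 0.17 (SE, adjusted p = 0.011). In Belgrade tops none was called, with Slc38a2 at 1.15 ± 0.25 (SE, adjusted p = 0.059), and Mthfd2, of mitochondrial folate metabolism, had the largest difference, 3.25 ± 0.88 (SE, adjusted p = 0.20).

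The endoplasmic reticulum chaperones and unfolded protein response genes (14 of 15 tested) had no call against controls. Of all probe sets, 0.460% were called higher and 0.517% lower in deficient tops, and 0.0415% and 0.0490% in Belgrade tops. In deficient tops 2 of the list were higher and 12 lower, with a median of -0.62 against -0.01 over all probe sets. In Belgrade tops 6 were higher and 8 lower, with a median of -0.10 against -0.0049. Of the glutathione and NRF2 genes (8 of 9 tested), Hmox1, heme oxygenase, was called higher in deficient tops by 1.80 ± 0.25 (SE, adjusted p = 0.0020) and in Belgrade tops by 1.85 ± 0.27 (SE, adjusted p = 0.0095), and Srxn1 was called higher in deficient tops by 0.96 ± 0.18 (SE, adjusted p = 0.015).

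Over the 40 values of 20 samples in 2 segments, the genes whose levels correlated most with Asns were Aars1 (Pearson r = 0.857), Aqp4 (0.821), Serp1 (0.780), Sars1 (0.769) and Pcna (0.764). The values come 2 to a rat and share the slope along the villus, so these figures are a description only.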

How the data were processed

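Gene expression in 44 villus and 2 crypt sections was measured on Affymetrix rat arrays. The authors deposited an intensity for every probe set of every array, without a log; the software behind these values is not given in the sources used here. The 2% trimmed mean was the same on 42 arrays and 1.15 times as high on 4, and scaling of that kind hides a change common to most genes. These 4 were the top and bottom arrays of control rat 3 and of rat 3 of the 3-day Belgrade group. Array medians ran from 597 to 1179 intensity units. After 57 control probe sets were left out of 31099, a pseudocount of 44 (the 10th percentile of villus intensities) was added, values were log2 transformed and villus arrays quantile normalized, with crypt arrays set to the same distribution. The 26517 probe sets over the 40th percentile on at least 3 villus arrays were tested. By the platform annotation 20826 probe sets had 1 symbol, 436 several and 9780 none.

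Rats of a group whose arrays differed by a robust SD under 0.2 were averaged. Groups were compared with limma 3.58.1 (lmFit, and eBayes with a trend) in R 4.3.3 on the mean of a rat's arrays and on each segment alone, with all 6 groups sharing the spread. Top minus bottom was fitted within rats, as paired by the labels. After group means were subtracted, the bottom that correlated best with a top was its own rat's in 17 of 22 rats. The correlations of a rat's own top and bottom were low, from 0.00069 to 0.21. Tests were two-sided, given Benjamini-Hochberg adjustment across every probe set in the fit, and the code was tested on simulated data. The number of samples limits the precision.

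Members, lists and tests were chosen with earlier results of these data known. All member probe sets were described; of other lists, genes called in a comparison or else the 2 largest differences, and the 5 genes nearest to Asns by Pearson correlation. Alternatives were other scalings, pseudocounts of 11 and 176, no filter, no trend, all 22 rats counted, rat number as a block, Xist as a covariate and samples left out. Rat numbers did not pair rats: all same-numbered rats correlated above 0.1 for 0 of the 15 group pairs. Promoters are from RefSeq, build GRCr8.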

Additional observations from a re-analysis of the deposited data

Results flagged for a closer look

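In 6 of the 52 sets of 4 samples tested, 1 sample stood far from the other 3 by Dixon's criterion, and chance gives about 1 in 20. Deficient sample 4 accounted for 3 of these: its Phgdh top was low at 7.91 (others 9.52 to 9.83), its Psat1 bottom high at 12.6 (others 12.03 to 12.11) and the bottom of the dimmest Trib3 probe set low at 8.57 (others 9.51 to 9.68). Deficient sample 3 was low in the top of that Trib3 probe set, at 12.13 (others 12.72 to 12.82). Sample 4 of the Belgrade rats given iron for 3 days was high in the top of the middle Trib3 probe set, at 12.56 (others 12.24 to 12.28), and low in the bottom of the dimmer Sesn2 probe set, at 8.18 (others 9.65 to 9.89).

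The top minus bottom difference of Atf5 had opposite signs in control and Belgrade rats on the normal diet, negative in 3 of 3 control samples and positive in 3 of 3 Belgrade samples. The difference between the genotypes was 2.63 ± 0.57 (SE), with an adjusted p of 0.50 in limma over all probe sets, so it did not pass.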

How the results depend on the processing

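The count of 10 member probe sets called along the villus stayed within 1.5 times under every alternative run. The counts between groups moved. Against controls, deficient rats had 1 member called, which became 0 with median centring, without the trend and with Xist as covariate, 3 with all 22 rats counted, and 2 without control 3 and repleted 3. Repleted rats went from 0 to 1 and Belgrade rats from 0 to 3 with all 22 rats counted. In the tops, deficient rats went from 0 to 2 with all 22 rats counted. Belgrade tops had 2 called, which became 1 with median centring, 1 with the smaller and 4 with the larger pseudocount, 0 without the trend, 4 with all 22 rats counted and 4 with Xist as covariate. With the rat number as a block, over all 22 rats, the counts were 4 in deficient, 3 in repleted and 4 in Belgrade rats over both segments, and 2 and 4 in deficient and Belgrade tops; the numbers did not pair the rats, and both this fit and the count of 22 take the near-identical rats as separate.

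Leaving out 1 sample at a time gave 0 to 3 calls in deficient, 0 to 3 in repleted and 0 to 4 in Belgrade rats, and 0 to 3 and 0 to 5 in deficient and Belgrade tops. The highest count in each case was reached without repleted sample 3. In bottom arrays alone the Belgrade differences of Atf4 and Atf5 turned to -0.10 and -0.33. The Belgrade top difference of Sesn2 ran from -0.11 (without control sample 4) to 0.27. Of the recomputed values of the member differences described singly (those with an unadjusted p under 0.05, the Belgrade tops and the slopes), 794 kept direction and side of the threshold, 40 passed it anew, 27 no longer passed it and 3 reversed. Of 49 further member differences, 27 changed sign under an alternative and 1 was called, that of Sesn2 between repleted and control rats. Over both segments, values as deposited moved the median of all probe sets by -0.12 in deficient and -0.12 in Belgrade rats against controls and by 0.12 in repleted against deficient rats. Median centring moved it by -0.17 and -0.13 in repleted against deficient and control rats. The alternatives for the tops and without control 3 and repleted 3 were chosen after seeing the data.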
